A study of Saccharomyces cerevisiae with 15 samples.

Results

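The 26S proteasome of budding yeast was followed through loss of glucose in ribosome footprints and RNA, over the 33 genes of its subunits and the gene of their transcriptional activator, RPN4. The 34 genes were taken by name from the 5703 genes analysed, by a rule that uses no measured value, though earlier results of these data were known when the genes were chosen. They divide into 14 genes of the 20S core, 7 in the alpha ring and 7 in the beta ring, 19 genes of the 19S cap, 10 in the base and 9 in the lid, and RPN4 itself. The cells were YWG25, a wild-type strain of the Sigma1278b background. The labels describe growth in YPD, a rich medium, at 30 °C and harvest near an optical density of 0.7. The -GLU state, without glucose, rests on the titles, and the sources used here do not say how long glucose was withheld. The groups were -GLU RNA, +GLU RNA, -GLU footprints and +GLU footprints, with 3 libraries each, all from cells given cycloheximide, which blocks elongation. A further 3 footprint libraries were made without the drug, from -GLU cells with fast harvest by filtration, from -GLU cells without it, and from +GLU cells with fast harvest, 1 library each.

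The 26S proteasome degrades proteins tagged with ubiquitin. Its barrel, the 20S core, is a stack of alpha rings, which gate the entrance, and beta rings, which hold the cutting sites, and its 19S cap binds the tagged protein, removes the ubiquitin and feeds the chain into the barrel by means of a ring of ATPases. Rpn4 binds a short sequence called PACE in front of proteasome genes and switches them on. Rpn4 is itself degraded within minutes by the proteasome, so that its amount follows how busy the proteasome is. In quiescent yeast that has run out of glucose, proteasomes are known to gather in cytoplasmic granules.

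The sequence that joins these genes is shown first. The rule that chose them did not use it. PACE is, however, known as a sequence in front of proteasome genes, so its share here is a description and no independent test. The PACE letters GGTGGCAAA were searched on both strands (TTTGCCACC on the other) in the window from 250 bases before to 50 bases after each annotated coding start of the R64 reference, which is the S288C strain and not the one studied. An exact match stood before 12 of 14 core genes (85.7%) and 15 of 19 cap genes (78.9%), against 71 of 5693 genes in all (1.25%). With up to 1 mismatch it stood before 33 of 33 subunit genes, against 7.68% of all genes. The 7 sites below belong to subunits whose values are described at length, with UBI4, the polyubiquitin gene, added. Each is read on its gene's strand, 5′ to 3′, with 20 bases on either side, and capitals mark the PACE letters.
RPN6, chrIV:286780-286828, minus strand: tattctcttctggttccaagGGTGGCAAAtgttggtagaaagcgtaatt
RPN12, chrVI:252388-252436, plus strand: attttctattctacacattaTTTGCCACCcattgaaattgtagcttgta
RPN7, chrXVI:742280-742328, plus strand: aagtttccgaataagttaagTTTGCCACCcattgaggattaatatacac
PRE9, chrVII:761213-761261, plus strand: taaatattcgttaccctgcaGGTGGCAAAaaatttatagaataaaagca
SCL1, chrVII:475327-475375, minus strand: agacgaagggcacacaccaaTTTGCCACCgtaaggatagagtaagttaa
PRE6, chrXV:255208-255256, plus strand: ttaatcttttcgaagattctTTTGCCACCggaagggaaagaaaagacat
PUP3, chrV:349501-349549, minus strand: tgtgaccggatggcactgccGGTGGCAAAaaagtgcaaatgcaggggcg
UBI4, chrXII:65339-65387, minus strand: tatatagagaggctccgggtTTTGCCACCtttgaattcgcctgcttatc
The match began 84 to 183 bases before the start, with a median of 119 bases in the core and 124 in the cap, and it lay in either orientation. PRE5, PUP1, RPN13, RPN10, RPN8 and SEM1 had no exact match in this window, and neither did RPN4. The letters AGGGG, bound by the stress factors Msn2 and Msn4, stood before 8 of 33 subunit genes (24.2%), against 21.8% of all genes. TTACTAA, bound by Yap1 and read as TTAGTAA on the other strand, stood before 3 of 33 (9.09%), against 7.59%.

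**Figure D1:**
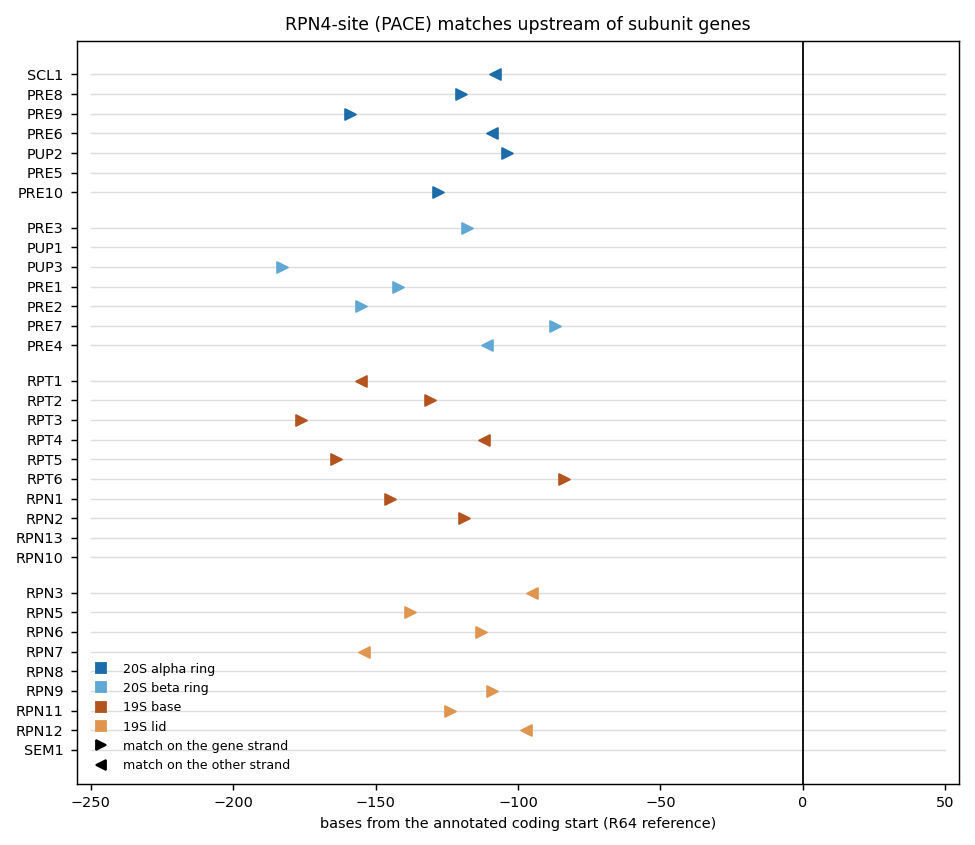
Position of each exact PACE match (triangle, pointing along the strand of the match) in bases from the annotated coding start for the 33 subunit genes, coloured by ring or subcomplex. The matches sit between 84 and 183 bases upstream in core and cap alike, and 6 genes have none.

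The 12 replicated libraries held 2391712 to 12560502 counts, and all 34 genes passed the filter on low counts in each comparison. FBP1, ICL1 and SUC2, which glucose represses, were higher in -GLU cells, with log2 changes of 10.73, 8.74 and 5.37 in RNA. The -GLU libraries of replicate 3 stood apart from the other -GLU libraries in both assays: FBP1 RNA had 3976, 2422 and 129 CPM (counts scaled to a common library total) in -GLU libraries 1 to 3. The poly(A) RNA was selected on oligo-dT cellulose in all -GLU libraries and in +GLU RNA 1, and on DynaBeads in +GLU RNA 2 and 3. For some genes the RNA results are therefore also given in the cellulose libraries alone. There +GLU has 1 library, and its spread is taken from the -GLU ones. Changes are log2 values of -GLU over +GLU from edgeR, given ± the standard error, and a gene rose or fell where its Benjamini-Hochberg adjusted p over all genes was under 0.05. Counts are shares of a library, so less RNA of a gene per cell, fewer cells that express it and more RNA of other genes cannot be told apart.

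RPN4 (YDL020C) was the member that changed most. Its RNA had 444, 502 and 384 CPM in -GLU libraries 1 to 3, against 147, 131 and 135 CPM in +GLU libraries. Its footprints had 493.5, 353 and 272 CPM in -GLU libraries, against 135, 149.5 and 138 CPM in +GLU libraries. In both assays every -GLU library lay above every +GLU library. The rise was 1.69 ± 0.22 in RNA (edgeR adjusted p = 0.000226), or 3.22-fold, and 1.41 ± 0.26 in footprints (adjusted p = 0.00233), or 2.65-fold. Among all genes the RNA change stood at the 88.1 percentile and the footprint change at the 77.7 percentile. In cellulose libraries alone the RNA change was 1.63 (adjusted p = 0.0287). Of the 34 members, RPN4 had the lowest mean level per length in +GLU RNA, at 83.3 ± 14.3 RPKM (counts scaled by gene length and by the library total), against 297 ± 55.6 RPKM in -GLU RNA (SD, n = 3 each). By that measure it ranked 629 among all genes in -GLU RNA and 2318 in +GLU RNA.

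The subunit genes moved far less than RPN4. In RNA 2 of the 34 members rose, RPN4 and RPN6, and 1 fell, PRE9, so 3 of 34 passed the test, whereas 60.6% of all genes did (30.4% higher and 30.2% lower). All 33 subunit changes lay within 1 log2 unit of 0, and for 23 of them the interval of 2 standard errors did too. The libraries of the 2 states failed to overlap for 6 of the 34 members, against 68.4% of all genes. In footprints 3 members rose, RPN4, RPN6 and RPN12, and 0 fell by edgeR, with 4 of the 34 at an unadjusted p under 0.05 and PRE6 called lower by DESeq2, against 64.8% of all genes called (33.8% higher and 31% lower). Again all 33 subunit changes lay within 1 log2 unit, 31 of them with 2 standard errors included, and the states failed to overlap for 11 of 34 members, against 72.2% of all genes. Scaling to total counts raised the median footprint change of all genes by 0.44. It gave 12 of 34 members higher and 0 lower, where 2416 of 5319 genes were higher and 1200 lower. Of all calls 66.8% were then higher, in place of 52.2%. Relative to the median of all genes, the median subunit footprint change was 0.03 with either scaling.

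**Figure D2:**
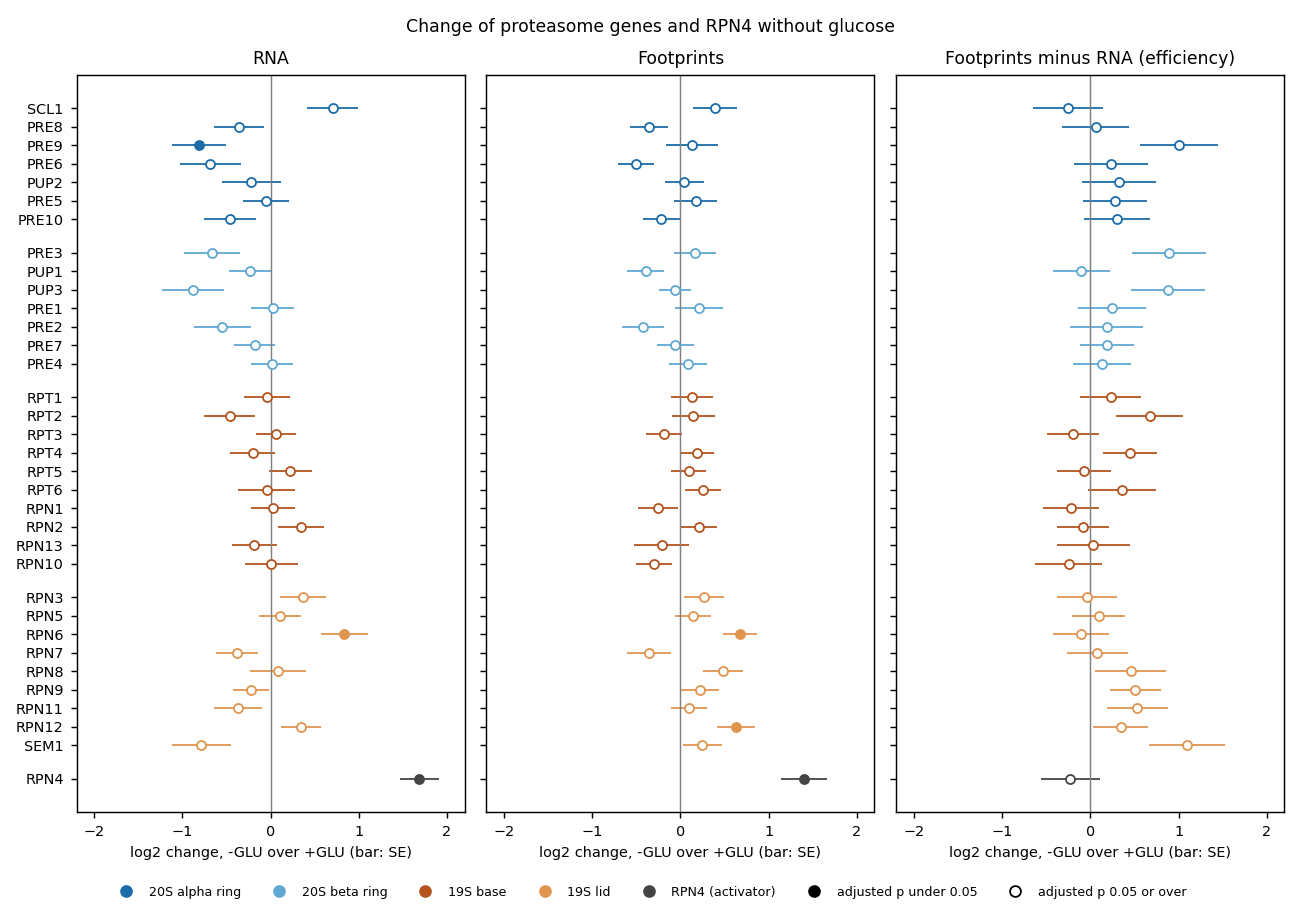
Log2 change of -GLU over +GLU (point) with its standard error (bar) for the 33 subunit genes and RPN4 in RNA, in footprints and in footprints relative to RNA, from 3 libraries a group; filled points have an adjusted p under 0.05. RPN4 stands at 1.69 in RNA and 1.41 in footprints, while the subunits lie between -0.88 and 0.84 in RNA and between -0.50 and 0.67 in footprints.

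In the 20S core, 0 of 14 genes rose and 1 fell in RNA by edgeR, with a median change of -0.30. At an unadjusted p under 0.05 there were 3 core genes, and DESeq2 called SCL1 higher and PRE9 and PUP3 lower. In footprints 0 rose and 0 fell, with a median of -0.01, where 1 core gene had an unadjusted p under 0.05 and DESeq2 called that same gene, PRE6, lower. PRE9 (YGR135W), the one core subunit that yeast can live without, had 291, 264 and 388 CPM of RNA in -GLU libraries, against 359, 670 and 627 CPM in +GLU libraries. The states overlapped through -GLU RNA 3 and +GLU RNA 1. Its RNA fell by 0.81 ± 0.31 (edgeR adjusted p = 0.044), and in cellulose libraries alone the change was -0.16 (adjusted p = 0.729). PRE9 footprints had 323.5, 301 and 578 CPM in -GLU libraries, against 395.5, 361 and 340 CPM in +GLU libraries, with a change of 0.13 ± 0.29, and the states overlapped. The RNA call was lost without +GLU RNA 2 (-0.65, adjusted p = 0.145), +GLU RNA 3 (-0.71, adjusted p = 0.141), -GLU RNA 1 (-0.76, adjusted p = 0.112) or -GLU RNA 2 (-0.70, adjusted p = 0.156), and with total counts (-0.64, adjusted p = 0.0613).

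The ends of the core range were held by other genes. SCL1 (YGL011C), an alpha-ring subunit, had 350.5, 337 and 578 CPM of RNA in -GLU libraries, against 260, 307 and 210 CPM in +GLU libraries. Every -GLU library lay above every +GLU library, yet the change of 0.70 ± 0.29 missed the threshold (adjusted p = 0.0587). SCL1 was also the core gene with the highest footprint change, 0.39 ± 0.25 (adjusted p = 0.202). PUP3 (YER094C), a beta-ring subunit without a cutting site, had 238, 202 and 295 CPM of RNA in -GLU libraries, against 234, 553 and 569 CPM in +GLU libraries. The cellulose library +GLU RNA 1 lay among the -GLU libraries, and the change was -0.88 ± 0.35 (adjusted p = 0.0546). PRE6 (YOL038W), in the alpha ring, had the lowest footprint change of the core, -0.50 ± 0.21 (adjusted p = 0.0659). It had 255, 221 and 308 CPM in -GLU footprints, against 365, 386 and 361 CPM in +GLU footprints, without overlap. The 3 subunits with cutting sites, PRE3 (YJL001W), PUP1 (YOR157C) and PRE2 (YPR103W), had footprint changes of 0.17 ± 0.24, -0.39 ± 0.21 and -0.42 ± 0.24, and none of the 3 passed the test. The other core genes, PRE8 (YML092C), PUP2 (YGR253C), PRE5 (YMR314W), PRE10 (YOR362C), PRE1 (YER012W), PRE7 (YBL041W) and PRE4 (YFR050C), lay between -0.46 and 0.03 in RNA and between -0.36 and 0.21 in footprints.

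In the 19S cap, 1 of 19 genes rose in RNA, with a median change of 0.01, and 2 rose in footprints, with a median of 0.15. At an unadjusted p under 0.05 there were 2 cap genes in each assay, and DESeq2 also called SEM1 lower in RNA. RPN6 (YDL097C), a lid subunit that clamps the cap to the core, had 519, 486 and 761 CPM of RNA in -GLU libraries, against 299, 359 and 331 CPM in +GLU libraries. Its footprints had 509, 453 and 463 CPM in -GLU libraries, against 306, 301 and 286 CPM in +GLU libraries. The states did not overlap in either assay, and RPN6 rose by 0.84 ± 0.27 in RNA (edgeR adjusted p = 0.0215) and by 0.67 ± 0.19 in footprints (adjusted p = 0.016). In cellulose libraries alone its RNA change was 1.01 (adjusted p = 0.129). The RNA call was lost without +GLU RNA 2 (0.90, adjusted p = 0.0501) or +GLU RNA 3 (0.84, adjusted p = 0.0777). The footprint call was lost without +GLU footprint 1 (0.58, adjusted p = 0.0843), 2 (0.60, adjusted p = 0.102) or 3 (0.56, adjusted p = 0.128). RPN12 (YFR052W), another lid subunit, had 537, 435 and 449 CPM in -GLU footprints, against 357, 277.5 and 284 CPM in +GLU footprints. Its footprints rose by 0.63 ± 0.22 (adjusted p = 0.0348) without overlap, while its RNA change was 0.35 ± 0.23 (adjusted p = 0.212). Its footprint call was lost on leaving out any library other than -GLU footprint 3, with changes of 0.49 to 0.68 (adjusted p = 0.0541 to 0.195).

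The remaining cap genes were not called by edgeR. SEM1 (YDR363W-A), the smallest subunit, which ties the lid together, had 148, 107.5 and 162 CPM of RNA in -GLU libraries, against 138, 346 and 235 CPM in +GLU libraries, a change of -0.78 ± 0.33 (adjusted p = 0.067). +GLU RNA 1 again lay among the -GLU libraries. RPN7 (YPR108W), in the lid, had the lowest footprint change of the cap, -0.36 ± 0.25, with 305, 187 and 219 CPM in -GLU libraries, against 325, 322 and 265 CPM in +GLU libraries. RPN11 (YFR004W), which cuts ubiquitin off the bound protein, changed by -0.37 ± 0.27 in RNA and 0.10 ± 0.20 in footprints. The 6 ATPases, RPT1 (YKL145W), RPT2 (YDL007W), RPT3 (YDR394W), RPT4 (YOR259C), RPT5 (YOR117W) and RPT6 (YGL048C), lay between -0.46 and 0.22 in RNA and between -0.19 and 0.25 in footprints. The ubiquitin receptors RPN10 (YHR200W) and RPN13 (YLR421C) had footprint changes of -0.30 ± 0.20 and -0.21 ± 0.31, and the base scaffolds RPN1 (YHR027C) and RPN2 (YIL075C) had -0.25 ± 0.23 and 0.21 ± 0.20. In the lid, RPN3 (YER021W), RPN5 (YDL147W), RPN8 (YOR261C) and RPN9 (YDR427W) lay between -0.22 and 0.37 in RNA and between 0.14 and 0.48 in footprints.

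Core genes had a lower median change than cap genes in RNA and in footprints. The median core change minus the median cap change was -0.30 in RNA, -0.15 in footprints and 0.15 in footprints relative to RNA, and the last of these changed sign with cellulose RNA alone, at -0.12, without +GLU RNA 2, at -0.08, without -GLU footprint 3, at -0.03, and without both -GLU replicate 3 libraries, at -0.02. No test was made of these differences, since they summarise chosen genes. In RNA the size of the gap depended on which +GLU libraries were used. In cellulose libraries alone the core median was 0.18 and the cap median 0.30, a difference of -0.12. Leaving out a DynaBeads library gave -0.16 without +GLU RNA 2 but -0.36 without +GLU RNA 3. Leaving out the cellulose library +GLU RNA 1 gave -0.32, so the gap did not simply follow the selection of poly(A). Without the cellulose library +GLU RNA 1, in turn, 8 of 34 members fell in RNA (PRE9, PRE6, PRE10, PRE3, PUP3, PRE2, RPT2 and SEM1), 6 of them core genes. In that fit 1638 of all 5530 genes tested fell. The part of the selection in the RNA changes was not tested. Core genes are also shorter, with a median coding length of 762 bases, against 1290 bases in the cap. Across the 33 subunits, which share the same libraries, the RNA change correlated with log2 length with Pearson's r = 0.46 and Spearman's rho = 0.46, against 0.17 and 0.22 in cellulose libraries alone, and the footprint change with r = 0.07 and rho = 0.14. In footprints, leaving out -GLU footprint 3 gave 4 core genes called lower, PRE8, PRE6, PUP1 and PRE2. With all libraries, 31% of all genes were called lower in footprints, and fits leaving out 1 library called 2884 to 3908 genes in either direction.

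Translational efficiency, the footprint change minus the RNA change fitted over 12 libraries, did not change past the threshold for any of the 34 members in the unpaired fit. There edgeR called 0 higher and 0 lower, with 2 members at an unadjusted p under 0.05, and DESeq2 also called 0, against 13.7% of all genes (9.24% higher and 4.48% lower). Of all calls 67.3% were higher, against 53.8% with DESeq2 size factors, 51.6% by the DESeq2 test and 84.9% with total counts. Those factors moved the median efficiency change of all genes by -0.11 and total counts by 0.23, as total counts did the median RNA change by 0.14. RPN4 changed by -0.23 ± 0.33 (adjusted p = 0.681). The highest values were those of SEM1, 1.09 ± 0.43 (adjusted p = 0.109), and PRE9, 1.01 ± 0.44 (adjusted p = 0.145). Paired by state and number, a fit chosen after seeing the data, footprint and RNA libraries gave 1431 genes called in place of 756, and SEM1 was then called higher, at 0.99 ± 0.34 (adjusted p = 0.0480). With total counts SEM1 was called too, at 1.30 ± 0.40 (adjusted p = 0.0416), and without +GLU RNA 1 PUP3 was called higher, at 0.99 ± 0.29 (adjusted p = 0.0432). The lowest were those of SCL1, -0.25 ± 0.39, and RPN10, -0.25 ± 0.38. The errors are wide here: 31 of 33 subunit changes lay within 1 log2 unit, but only 15 did with 2 standard errors included. The subunit median was 0.23, against 0.13 for all genes, and -0.39 with cellulose RNA alone, against -0.09 for all genes in that fit.

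In footprints made without cycloheximide, RPN4 again stood above all subunits, from 1 library a state and thus without a test. RPN4 had 405 CPM in the -GLU fast-harvest library and 389.9 CPM in the -GLU library without fast harvest, against 128 CPM in the +GLU fast-harvest library. The first and last of these give a log2 change of 1.66, with a 95% exact interval of 1.60 to 1.73 that covers counting error only. RPN4 was the only member at least 2-fold higher, where 25.6% of all genes were, and 0 members were at least 2-fold lower, where 24.9% of all genes were. The subunits lay between -0.77, for PUP1, and 0.52, for RPN12, with RPN8 at 0.49 and RPN6 at 0.28. The core median was -0.11 and the cap median -0.09, a difference of -0.02. With the -GLU library without fast harvest in its place, the core median was -0.59 and the cap median 0.06. PRE9 and PUP1 were then at least 2-fold lower, where 1567 of 5335 genes were. That library was the shallowest, with 1610986 counts, and its harvest differed from that of the +GLU library, so harvest and glucose cannot be told apart in it.

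**Figure D3:**
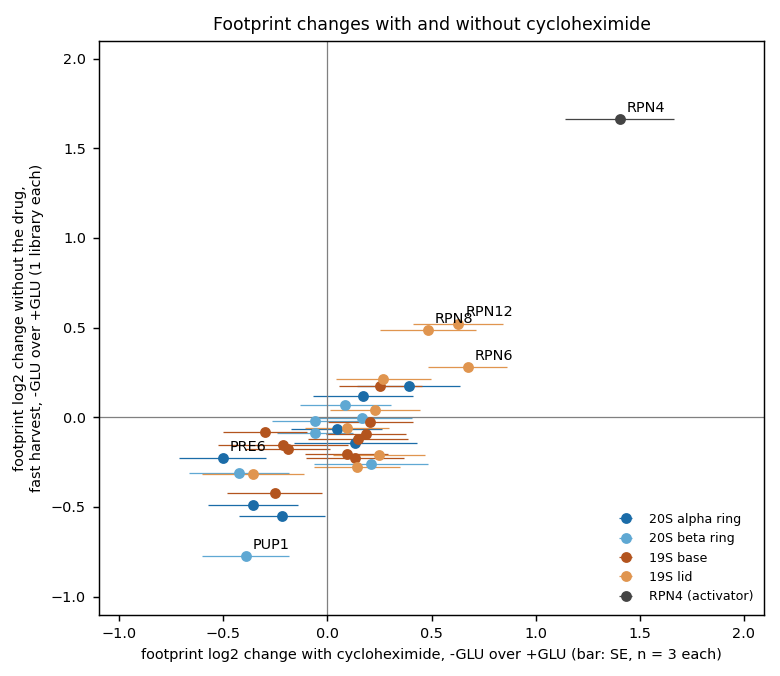
Footprint log2 change of -GLU over +GLU without cycloheximide, from 1 fast-harvest library a state (vertical axis), against that with cycloheximide, from 3 libraries a state with the standard error as a bar (horizontal axis), for the 33 subunits and RPN4. RPN4 stands alone at the upper right, at 1.66 without and 1.41 with the drug, and all subunits lie between -0.77 and 0.52 without it.

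The levels per length show how evenly footprints and RNA were spread over the subunit genes. How much of each protein was made was not measured. A finished core holds each of its subunits in equal number, and in +GLU footprints the 14 core genes lay close together, between PRE10 at 372 ± 23.0 RPKM and PRE8 at 483 ± 13.8 RPKM (SD, n = 3). In -GLU footprints they ran from PRE6 at 407 ± 79.6 RPKM to SCL1 at 749 ± 214 RPKM. The highest core gene stood 1.64, 2.35 and 2.01 times above the lowest in -GLU footprint libraries 1 to 3, against 1.51, 1.27 and 1.33 times in +GLU footprint libraries. The SD of log2 levels over the 14 genes was 0.27, 0.33 and 0.37 in -GLU libraries, against 0.17, 0.12 and 0.12 in +GLU libraries, so the states did not overlap. The same measure without cycloheximide was 0.30 in the -GLU fast-harvest library and 0.37 in the other -GLU library, against 0.17 in the +GLU fast-harvest library. In RNA it was 0.26, 0.26 and 0.33 in -GLU libraries, against 0.27 in the cellulose library +GLU RNA 1 and 0.48 and 0.61 in the DynaBeads libraries, and the states overlapped. These spreads were seen before they were chosen for description and were not tested.

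In footprints, cap genes were spread more widely than core genes in every library. SEM1 was highest, at 957 ± 218 RPKM in -GLU footprints, against 615 ± 37.7 RPKM in +GLU footprints. The lowest were RPN1, at 202 ± 37.7 RPKM in -GLU footprints, and RPN2, at 144 ± 16.9 RPKM in +GLU footprints, both large scaffold proteins. The highest cap gene stood 3.77 to 5.76 times above the lowest in -GLU footprints, against 4.03 to 4.49 times in +GLU footprints, and these ranges overlapped. The SD of log2 levels over the 19 cap genes was 0.52, 0.60 and 0.64 in -GLU footprints, against 0.50, 0.48 and 0.49 in +GLU footprints, so by this measure the states did not overlap in the cap either. SEM1 has the shortest coding sequence of all members, 270 bases, and levels of so short a gene rest on few codons. The median core level exceeded the median cap level by 0.22 to 0.63 log2 units in -GLU footprints, against 0.63 to 0.66 in +GLU footprints. All 33 subunits together took 1.25% to 1.73% of the counts in -GLU footprint libraries, against 0.939% to 1.13% in +GLU footprint libraries, without overlap, and 1.19% to 1.47% in -GLU RNA, against 1.13% to 1.40% in +GLU RNA, with overlap. The difference in footprints is one of shares of total counts, the scaling under which the median of all genes also moved up.

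**Figure D4:**
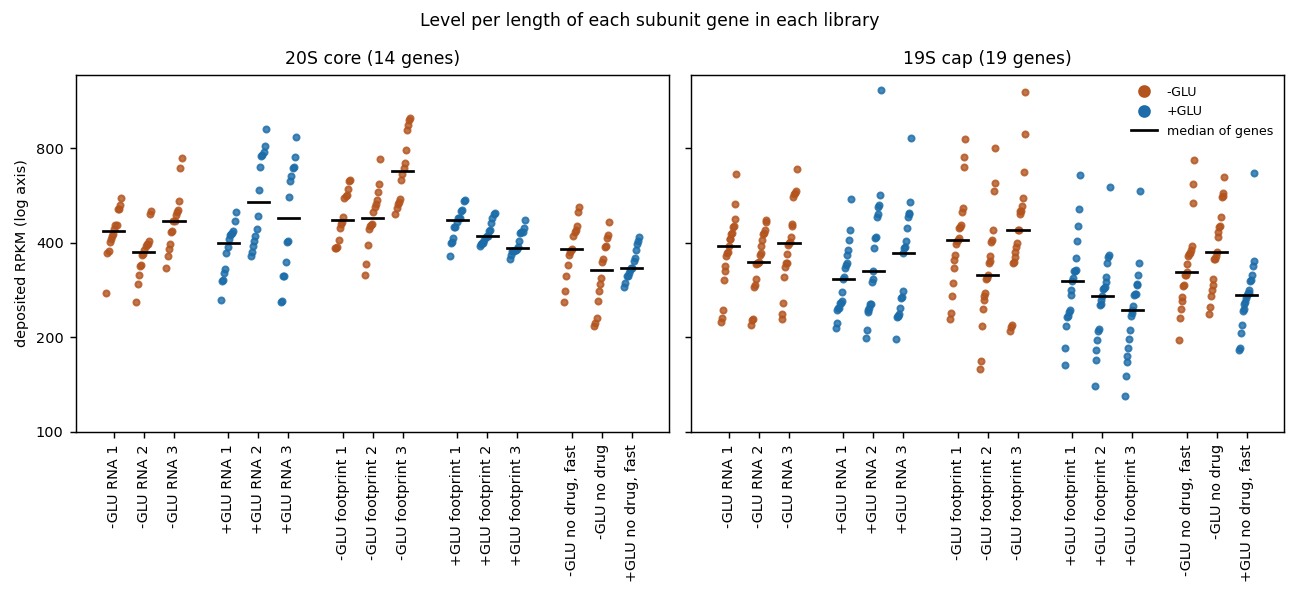
Deposited RPKM (log axis) of each core gene (left) and cap gene (right) in each of the 15 libraries, sorted within a library, with the median as a line. In the core the highest gene is 1.64 to 2.35 times the lowest in -GLU footprint libraries with the drug, against 1.27 to 1.51 times in +GLU footprint libraries with the drug.

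The chaperones that assemble the proteasome had larger median changes than its subunits, and none of the 9 had an exact PACE match in the window searched. With up to 1 mismatch 1 of the 9 had a match (11.1%), against 7.68% of all genes. Shorter forms of the site were not searched. In RNA 4 of the 9 chaperones rose and 1 fell, and in footprints 5 rose and 1 fell, with medians of 0.65 and 1.08. Of all genes 30.4% rose and 30.2% fell in RNA, and 33.8% rose and 31% fell in footprints. UMP1 (YBR173C), a chaperone of the forming core that is then degraded by it, had 385, 505 and 386 CPM in -GLU footprints, against 166, 187 and 185 CPM in +GLU footprints, without overlap. Its footprints rose by 1.25 ± 0.21 (edgeR adjusted p = 0.00147) and its RNA by 0.65 ± 0.24 (adjusted p = 0.0398). NAS2 (YIL007C), RPN14 (YGL004C), NAS6 (YGR232W) and HSM3 (YBR272C), which each hold ATPases of the base during assembly, all rose in footprints, by 1.99 ± 0.26, 1.80 ± 0.28, 1.36 ± 0.24 and 1.08 ± 0.40. The states did not overlap for NAS2, RPN14 and NAS6, and did for HSM3. NAS2 had 62.3, 73.3 and 111 CPM in -GLU footprints, against 22.2, 17.7 and 22.2 CPM in +GLU footprints, and it was the one chaperone whose efficiency rose, by 1.24 ± 0.37 (adjusted p = 0.0463). That efficiency call was lost under 13 of 21 alternatives (adjusted p up to 0.260). In RNA NAS2, RPN14 and HSM3 rose by 0.82 ± 0.25, 1.17 ± 0.24 and 0.90 ± 0.27, and NAS6 missed the threshold, at 0.67 ± 0.29. POC4 (YPL144W), of a pair that helps to build the alpha ring, fell by 0.95 ± 0.25 in RNA and by 0.74 ± 0.24 in footprints. Its partner IRC25 (YLR021W), and PBA1 (YLR199C) and ADD66 (YKL206C), which form another such pair, passed no test. In cellulose libraries alone UMP1 RNA changed by 0.87 (adjusted p = 0.0961), RPN14 RNA by 1.14 (adjusted p = 0.0787), POC4 RNA by -0.80 (adjusted p = 0.140) and HSM3 RNA by 0.74 (adjusted p = 0.240). The RNA call of UMP1 was also lost without +GLU RNA 1 or 3 or -GLU RNA 1 or 3 (0.52 to 0.67, adjusted p = 0.0648 to 0.144), and that of HSM3 also without +GLU RNA 2 or 3 (0.80 and 0.90, adjusted p = 0.067 and 0.0585).

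Among proteins that bind the finished proteasome, 3 of 7 rose in RNA and 3 of 7 in footprints, and the other 4 missed the test in each, where 30.4% of all genes rose in RNA and 33.8% in footprints. SPG5 (YMR191W), a regulator of the proteasome needed in stationary phase, rose most. Its RNA had 556, 619 and 585 CPM in -GLU libraries, against 58.8, 48.8 and 60.3 CPM in +GLU libraries, a rise of 3.39 ± 0.24 (adjusted p = 1.2e-05), and its footprints rose by 3.59 ± 0.26. FUB1 (YCR076C), the yeast relative of the proteasome inhibitor PI31, had 67.6, 88.3 and 54.5 CPM in -GLU footprints, against 17.2, 25.4 and 29.0 CPM in +GLU footprints, with RNA of 67.8, 65.9 and 85.0 CPM in -GLU libraries, against 43.5, 87.2 and 95.9 CPM in +GLU libraries. The footprints did not overlap and the RNA did, and efficiency rose by 1.63 ± 0.42 (adjusted p = 0.0257), but by 0.64 (adjusted p = 0.395) with cellulose RNA alone, and the call was lost under 8 of 21 alternatives. STS1 (YIR011C), which helps proteasomes into the nucleus, rose by 0.79 ± 0.24 in footprints. That call was lost on leaving out any 1 +GLU footprint library or -GLU footprint 2 (0.65 to 0.77, adjusted p = 0.069 to 0.124). STS1 efficiency rose by 1.07 ± 0.33 (edgeR adjusted p = 0.04998), a call lost under 15 of 21 alternatives. BLM10 (YFL007W), an alternative cap, and HUL5 (YGL141W), a ubiquitin ligase on the cap, rose by 0.78 ± 0.22 and 0.90 ± 0.22 in RNA, with footprint changes of -0.02 ± 0.18 and 0.17 ± 0.26. In cellulose libraries alone these RNA changes were 0.94 (adjusted p = 0.0795) and 0.67 (adjusted p = 0.132), and without -GLU RNA 2 that of BLM10 was 0.76 (adjusted p = 0.0501). UBP6 (YFR010W) and ECM29 (YHL030W) passed no test.

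Genes that supply ubiquitin and carry it to the proteasome were called in both directions, as were all genes. In RNA 7 of 16 rose and 5 fell, against 30.4% and 30.2% of all genes, and in footprints 5 rose and 4 fell, against 33.8% and 31%, which is near the share over all genes. UBI4 (YLL039C), which encodes ubiquitin as a chain of repeats, had 740, 971 and 1266 CPM of RNA in -GLU libraries, against 231, 135 and 167 CPM in +GLU libraries, a rise of 2.48 ± 0.33 (edgeR adjusted p = 0.000257). Its footprints rose by 3.22 ± 0.29. The genes that make ubiquitin fused to a ribosomal protein, RPS31 (YLR167W), RPL40A (YIL148W) and RPL40B (YKR094C), fell by 4.89 ± 0.56, 3.41 ± 0.39 and 3.50 ± 0.30 in RNA and by 5.32 ± 0.43, 3.71 ± 0.26 and 4.55 ± 0.44 in footprints. RPS31 had 265, 277 and 184 CPM of RNA in -GLU libraries, against 3620, 8803 and 9136 CPM in +GLU libraries. These 4 genes share near-identical ubiquitin sequence, and how reads were divided among them is not given, so their values are uncertain. The same holds for UBC4 (YBR082C) and UBC5 (YDR059C), closely related ubiquitin-conjugating enzymes. UBC5 had 251, 209.6 and 203 CPM in -GLU footprints, against 14.3, 17.8 and 21.6 CPM in +GLU footprints, and rose by 3.62 ± 0.23, while UBC4 had 243, 309 and 347 CPM in -GLU footprints, against 628.5, 481 and 585 CPM in +GLU footprints, and fell by 0.91 ± 0.24. The efficiency of UBC5 rose by 1.14 ± 0.31 (adjusted p = 0.0312), a call lost under 9 of 21 alternatives. Of the 3 carriers, DDI1 (YER143W) rose by 1.28 ± 0.22 in RNA and 1.60 ± 0.18 in footprints. DSK2 (YMR276W) rose by 0.81 ± 0.25 in RNA, with a footprint change of -0.04 ± 0.28. RAD23 (YEL037C) fell by 0.68 ± 0.25 in RNA (edgeR adjusted p = 0.0416), with a footprint change of -0.75 ± 0.39 (adjusted p = 0.131). Its RNA had 274, 214 and 230 CPM in -GLU libraries, against 296 CPM in the cellulose library +GLU RNA 1 and 482 and 375 CPM in the DynaBeads libraries.

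**Figure D5:**
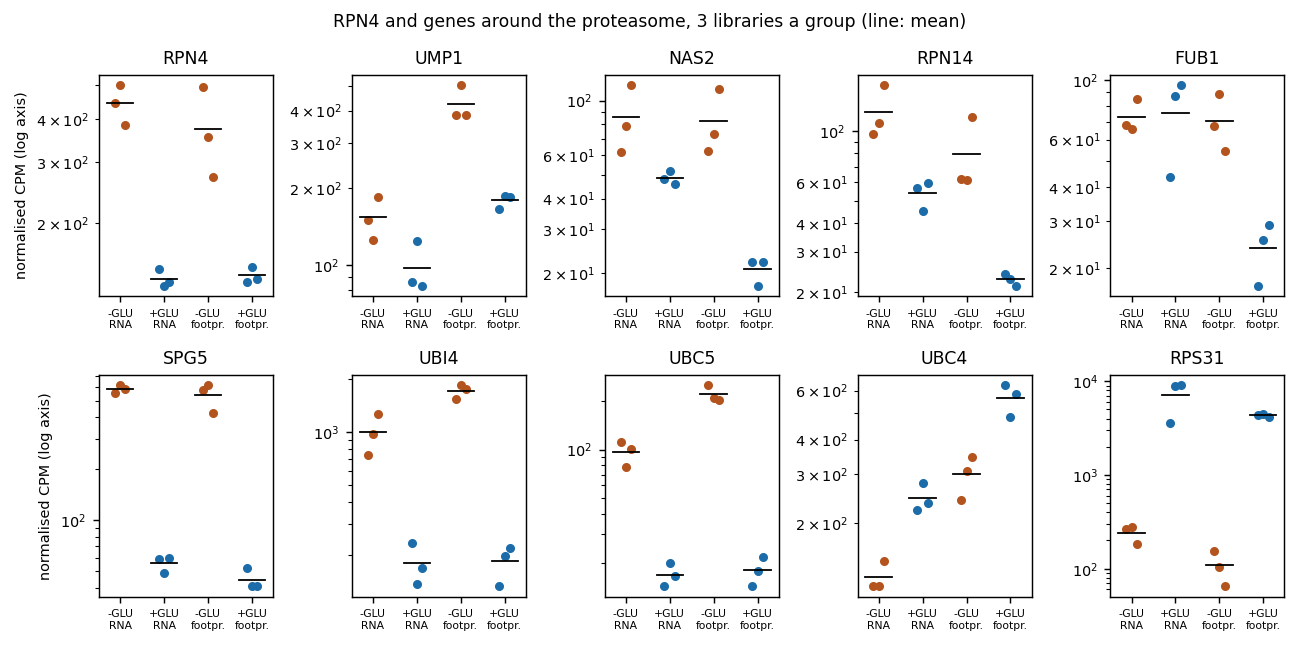
Normalised CPM (log axis, own scale in each panel) of RPN4 and 9 genes around the proteasome in the 3 libraries of each group (points) with their mean (line), RNA on the left and footprints on the right of each panel, -GLU before +GLU. RPN4, UBI4, UBC5 and SPG5 are higher in every -GLU library in both assays, while RPS31 and UBC4 are lower in every -GLU library.

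Of the 7 genes known to set the amount of Rpn4, 4 rose and 1 fell in RNA, and 4 rose and 1 fell in footprints. The share called is near that over all genes, 60.6% in RNA and 64.8% in footprints. Among the activators of RPN4, HSF1 (YGL073W), the heat-shock factor, rose by 1.00 ± 0.21 in RNA and 0.84 ± 0.20 in footprints, and YAP1 (YML007W), the oxidative-stress factor, by 0.88 ± 0.23 and 1.07 ± 0.20. YAP1 had 427, 409 and 328 CPM in -GLU footprints, against 185, 188 and 183 CPM in +GLU footprints, without overlap. PDR1 (YGL013C) and PDR3 (YBL005W), the drug-resistance factors, rose in RNA, by 0.85 ± 0.23 and 1.19 ± 0.32, and passed no test in footprints. PDR1 RNA had 188, 203 and 159 CPM in -GLU libraries. It had 131 CPM in the cellulose library +GLU RNA 1, against 84.4 and 88.1 CPM in the DynaBeads libraries. In cellulose libraries alone the RNA changes of HSF1, YAP1 and PDR3 were 0.76, 0.73 and 0.67 (adjusted p = 0.0798, 0.123 and 0.172), and without +GLU RNA 3 that of YAP1 was 0.78 (adjusted p = 0.0505). The ligase that marks Rpn4 for degradation is made of Ubr2, its partner Mub1 and the conjugating enzyme Rad6. UBR2 (YLR024C) rose by 0.69 ± 0.21 in footprints, with an RNA change of 0.53 ± 0.23 (adjusted p = 0.0749), and its footprint call was lost on leaving out any library other than -GLU footprint 3 (0.53 to 0.64, adjusted p = 0.0622 to 0.116). MUB1 (YMR100W) had 70.5, 84.4 and 87.7 CPM in -GLU footprints, against 53.1, 37.9 and 39.9 CPM in +GLU footprints, a rise of 0.89 ± 0.20, and its efficiency rose by 1.30 ± 0.30 (adjusted p = 0.0168), a call lost under 4 of 21 alternatives. RAD6 (YGL058W) fell by 0.78 ± 0.23 in RNA and 0.75 ± 0.26 in footprints.

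A PACE match outside the proteasome went with varied changes. Of the 44 other genes with an exact match, 18 rose and 5 fell in RNA, 40.9% and 11.4%, with a median of 0.35, against 30.4% and 30.2% of all genes with a median of 0.01. In footprints 16 rose and 4 fell, 36.4% and 9.09%, against 33.8% and 31% of all genes. Among the 27 subunit genes with a match, 1 rose and 1 fell in RNA, with a median of -0.18. In 7 cases the same site lay between a subunit gene and a neighbour read in the other direction. MPO1 (YGL010W), across the site from SCL1, rose by 1.88 in RNA (edgeR adjusted p = 0.000395), where SCL1 changed by 0.70. GCD1 (YOR260W), a translation initiation factor gene across from RPT4, fell by 1.04 in RNA (adjusted p = 0.00309), where RPT4 changed by -0.20. NOP14 (YDL148C), a ribosome biogenesis gene across from RPN5, fell by 1.99 in RNA (adjusted p = 0.00403), where RPN5 changed by 0.11. Of the other 4 neighbours none was called in RNA. YTH1 (YPR107C) changed by -0.36, where RPN7 changed by -0.38, and YPI1 (YFR003C) by 0.13, where RPN11 changed by -0.37. ALG13 (YGL047W) changed by 0.57, where RPT6 changed by -0.04, and YOL038C-A by 0.02, where PRE6 changed by -0.68. In footprints YTH1 rose by 0.88 (edgeR adjusted p = 0.0243), where RPN7 changed by -0.36. ALG13 footprints rose by 1.18 (adjusted p = 0.00822), where RPT6 changed by 0.25. YPI1 and YOL038C-A were not called in footprints. MPO1, GCD1 and NOP14 were called there in the same direction as in RNA, at 2.72, -1.87 and -3.08. The shared sites were looked at after the values were seen.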

How the data were processed

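Genes were counted in 15 libraries of Saccharomyces cerevisiae. The authors deposited counts per gene, not normalised, and RPKM values. In 2 deposited columns 1 entry is not whole, so those deposited columns are named expected counts. That row, YPR203W, was dropped throughout, and the rest of the table is whole. The deposited RPKM were used only for levels per length; the length behind them is the coding length less 24 bases in 12 libraries and plus 2 bases in +GLU RNA 1, -GLU RNA 3 and -GLU footprint 3. No label or header used here names the aligner, the build or how strand was handled. The labels describe cycloheximide at 100 µg/ml for all libraries, while the descriptions of 3 say that it was omitted.

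The test was that of edgeR 4.0.16 under R 4.3.3 (quasi-likelihood F test, TMM, filterByExpr with a minimum count of 10, Benjamini-Hochberg over all genes at 0.05), and efficiency as the interaction of assay and glucose. CPM values are normalised within each assay. DESeq2 1.42.0, other scalings, no filter, an offset for the counted length, a replicate block, a block pairing footprint and RNA libraries (added after seeing the data), cellulose libraries alone and leaving out each library were alternatives. The scripts were tested on simulated data. Libraries without cycloheximide were compared by TMM-scaled counts. Replicates of a group differed beyond sampling noise (chi-square per degree of freedom 8.94 to 373). Nothing in the labels says that replicates come from separate cultures, and the p-values reflect the spread of these libraries alone, which may be technical. The exact interval of the drug-free libraries comes from the counts of 1 library a state and covers counting error only. It takes every count as separate, and no molecular identifiers are described that would show this. Names, coding lengths and upstream sequence came from RefSeq R64, matched by locus tag (5698 of 5703 genes).

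The members and lists were chosen with earlier results of these data known. Named with values are RPN4, members past the threshold, the highest and lowest change in core and cap in each comparison, and of each other list up to 3 genes past the threshold per comparison, with UMP1, BLM10, UBI4, UBR2 and SPG5 always. UBC4, DDI1, DSK2, RAD23, PDR1, RAD6 and the subunits described by role were added after their values were seen.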

Additional observations from a re-analysis of the deposited data

How the results depend on the processing

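RPN4 kept its call and direction in RNA under all 13 alternatives (1.59 to 1.83) and in footprints under all 12 (1.15 to 1.83). Its efficiency change had the other sign with total counts, at 0.00284 (edgeR adjusted p = 0.998), and is not called under any of 21 alternatives. Of 41 results for single genes, 20 kept call and direction under all alternatives and 20 lost a call under at least 1. UBC4, DDI1, DSK2, RAD23, PDR1 and RAD6 are not among the 41. The cause was not tested for any of the shifts below.

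With cellulose RNA alone, 1764 genes were called in RNA in place of 3343, members higher were 1 and lower 0, and the subunit median was 0.19 in RNA and -0.39 in efficiency, with 145 efficiency calls in place of 756. Members lower in RNA were 0 with total counts, where 1396 of 5519 genes were lower. With DESeq2 they were 3 (PRE9, PUP3 and SEM1), where 1716 of 5519 genes were lower. With total counts 12 members were higher in footprints, where 2416 of 5319 genes were, and the subunit footprint median was 0.57. In efficiency 1 member, SEM1, was then higher. DESeq2 called 1 member lower in footprints, where it called 1733 of 5319 genes lower. Without both -GLU replicate 3 libraries, 1378 genes were called in efficiency. Without fast harvest, drug-free footprints gave 2 members lower, where 1567 of 5335 genes were, and a core minus cap value of -0.65.

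Leaving out 1 library at a time gave 1 to 2 members higher and 0 to 8 lower in RNA, and 1 to 3 higher and 0 to 4 lower in footprints. With all libraries, 30.4% of all genes were higher and 30.2% lower in RNA, and 33.8% and 31% in footprints. In efficiency, leaving out 1 library gave 0 to 1 members higher, 273 to 1034 genes called and a subunit median of -0.17 to 0.35. Core minus cap kept its sign in RNA (-0.39 to -0.12) and footprints (-0.22 to -0.11) under all alternatives, and not in efficiency (-0.12 to 0.26).

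With the replicate block, 1 member was higher and 0 lower in RNA, where 1567 of 5519 genes were higher and 1567 lower. In footprints 1 member was then higher, where 1688 of 5319 genes were, and 393 genes were called in efficiency. Same-numbered -GLU and +GLU libraries did not deviate together (correlations -0.148 to -0.00538 in RNA and 0.0478 to 0.0681 in footprints). With 3 libraries a state, these correlations cannot show whether same-numbered libraries were grown or prepared together. Same-numbered footprint and RNA libraries did deviate together in -GLU cells (0.566, 0.366 and 0.585), and less so in +GLU cells (0.113, 0.156 and 0.0829), where 1 pair was under 0.1. The block above does not pair these. A block that does, chosen after seeing the data, gave 1431 genes called in efficiency in place of 756 and 1 member higher, SEM1. Standard errors over the subunits were 0.289 to 0.443 in efficiency, against 0.204 to 0.352 in RNA and 0.181 to 0.311 in footprints.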
